A study of Mus musculus with 9 samples.

Results

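Cells that divide must make nucleotides, and 34 mouse genes that encode the enzymes of this supply line are described here in the medial ganglionic eminence (MGE), the ventral forebrain zone in which many cortical interneurons are born. They were taken by name: the serine synthesis enzymes, the folate enzymes, the purine enzymes, the pyrimidine enzymes and the enzymes that make or clean up deoxynucleotides, with 3, 8, 11, 5 and 7 genes. All 34 were found among the 48526 Ensembl identifiers of the table, and all 34 had a mean of at least 10 normalized counts over the libraries, the minimum for testing. RNA sequencing was done at embryonic day 14.5 on C57BL/6 tissue, in 5 knockout and 4 control libraries. Every library carried the Rosa26-YFP reporter and Nkx2.1-cre, whose recombinase is made in the MGE lineage, so that other cells of the tissue are left unrecombined. The knockouts carried 2 floxed Ctnnb1 alleles (Ctnnb1fl/fl), control replicate 4 carried 1 (Ctnnb1fl/wt) and control replicates 1 to 3 carried 0. Sorting and the number of embryos per library are not stated in the labels. The p-values therefore speak of the spread among the 9 libraries, and that spread may be technical.

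Serine is made from an intermediate of glycolysis in a short chain of enzymes. Its side carbon is passed to folate, and folate carries that carbon into the purine ring and into thymidylate. Pyrimidines are built on a separate backbone, and ribonucleotide reductase then turns ribonucleotides into the deoxynucleotides of DNA. In developing brain these enzymes are known from dividing progenitors, and mutations of the serine enzymes cause brain malformations with small head size in humans.

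Ctnnb1, which encodes beta-catenin, had 5477 to 7661 normalized counts in knockouts, below all controls with 9545 to 9967 (log2 fold change -0.54, SE 0.0960, adjusted p = 0.000811 by limma). The libraries held 5120585 to 5569444 reads. The defining MGE transcription factors Nkx2-1 and Lhx6, named after their values were seen, were present in both groups: Nkx2-1 averaged 4442 normalized counts in knockouts and 5718 in controls, and Lhx6 5210.4 in knockouts and 2999 in controls. Markers of the region's progenitors and neurons moved between the groups. By limma, 7 of 12 radial glia markers fell and 0 rose, and their summed level was 12937 to 16815 normalized counts in knockouts against 21196 to 26783 in controls. The sum rests most on abundant markers. As a mean log2 difference from the control mean, which weighs the markers alike, the groups nearly met. Knockouts lay at -0.64 to -0.13 and controls at -0.10 to 0.21. Pax6 had the largest SE of the 12 (log2 fold change 1.09, SE 1.32). It ranged from 22.7 to 493 normalized counts in knockouts and from 4.98 to 234 in controls. A marker that varies so much can move this mean, and the mean without Pax6 was not computed. Of 14 pan-neuronal markers 9 rose and 0 fell, with sums of 31806 to 41325 in knockouts against 17719 to 22546 in controls. A DNA replication list had 26 of 26 genes fall (median -0.89 on the log2 scale), 22 to 26 with 1 library left out and 15 against control replicates 2 and 3 alone. Control replicate 1 stood apart on the 9 dorsal cortex markers, whose sum was 2657 there, against 157 to 542 in knockouts and 82.7 to 212 in the other controls. It also stood apart on the 7 choroid plexus markers, at 3029 against 168 to 737 in knockouts and 166 to 367 in the other controls. None of the 36 measured markers of dorsal cortex, choroid plexus, endothelium and pericytes, microglia or erythroid cells passed the test. Of these lists' genes, Folr1, Kl and Kcne2 of the choroid plexus list were at 0 in some libraries.

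Of the 34 members, 27 fell in knockout, 1 rose and 6 did not pass the test (limma, adjusted p under 0.05). Over all 13780 genes tested, 17.3% fell and 17.2% rose. The members' median log2 fold change was -0.78, against -0.01 over all genes tested, and the values ran from -1.80 for Psat1 to 1.14 for Aldh1l2. In the same 27 genes every knockout library lay below every control, and 14.6% of all genes did so. By branch, 3 of 3 serine genes, 6 of 8 folate genes, 8 of 11 purine genes, 3 of 5 pyrimidine genes and 7 of 7 deoxynucleotide genes fell. The branch medians were -0.94, -0.88, -0.65, -0.74 and -0.91. In RNA taken from many cells at once, fewer cells of a type and less RNA per cell cannot be told apart. Set against control replicates 2 and 3 alone, 23 members fell and 1 rose, in a comparison in which 1108 of all genes fell.

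**Figure D1:**
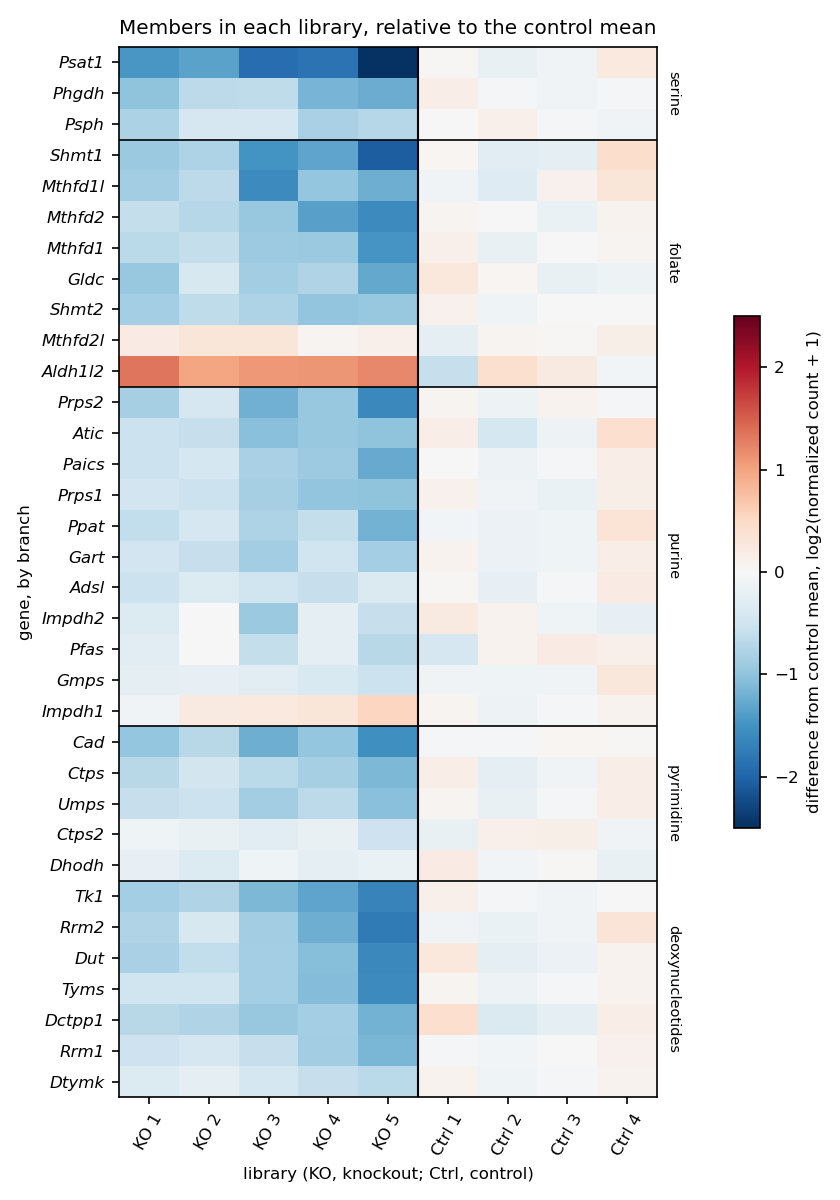
Difference of each member from the control mean on log2(normalized count + 1), in the 5 knockout (KO) and 4 control (Ctrl) libraries, with genes grouped by branch. Most rows are blue in every knockout library, Aldh1l2 is red in all 5, and knockout replicate 5 is the darkest column.

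The serine genes included the member with the largest decrease. Psat1 (ENSMUSG00000024640; chromosome 19, 15904678 to 15947337, mm10, protein-coding), the aminotransferase of the middle step, had 910.0, 998, 669, 703 and 454 normalized counts in knockout replicates 1 to 5, against 2574, 2200.0, 2352 and 2995 in control replicates 1 to 4. The groups were far apart: the highest knockout held less than the lowest control, and the knockout mean was 29.5% of the control mean. With -1.80 on the log2 scale (SE 0.203, adjusted p = 0.000187), it was the fifth most negative of the 13780 genes tested. Phgdh (chromosome 3, 98313170 to 98339990), the dehydrogenase that opens the pathway, had 172, 221, 224, 156 and 146 normalized counts in knockouts, against 393, 339, 330 and 335 in controls. Its groups did not overlap, and it fell to 52.7% of the control mean (log2 fold change -0.94, SE 0.135, adjusted p = 0.000230). Psph (chromosome 5, 129765558 to 129787449), the phosphatase that releases free serine, had 107, 137, 137, 104 and 113 normalized counts in knockouts, against 184, 203, 180 and 173 in controls. The 5 knockouts were again below every control, with the smallest change of the branch (-0.63, SE 0.123, adjusted p = 0.00147). Of the exon bases of Psph, 10.4% are shared with exons of Cct6a on the opposite strand, and Cct6a fell by 0.34 on the log2 scale (adjusted p = 0.0213). Reads of the pair cannot be told apart if strand was not used in counting.

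Each serine gene was also set against the mean log2 level of the 26 replication genes in the same library, a ratio that does not depend on how libraries were scaled. For Psat1 this log2 ratio was 1.33, 1.20, 1.08, 1.25 and 1.07 in knockouts, against 2.01 to 2.22 in controls. Relative to the replication genes Psat1 was lower in all 5 knockouts than in every control (difference -0.92). An exact permutation test, two-sided, gave p = 0.0159, which is the lowest value it can give here, or 0.0476 adjusted over the 12 ratios tested. The ratio of Phgdh averaged -0.80 ± 0.26 (SD, n = 5) in knockouts and -0.75 ± 0.14 (SD, n = 4) in controls (exact permutation p = 0.714, adjusted p = 0.714). That of Psph averaged -1.40 ± 0.34 (SD, n = 5) in knockouts and -1.66 ± 0.19 (SD, n = 4) in controls (exact permutation p = 0.254, adjusted p = 0.305). For these other two serine genes, knockouts and controls overlapped on the ratio.

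**Figure D2:**
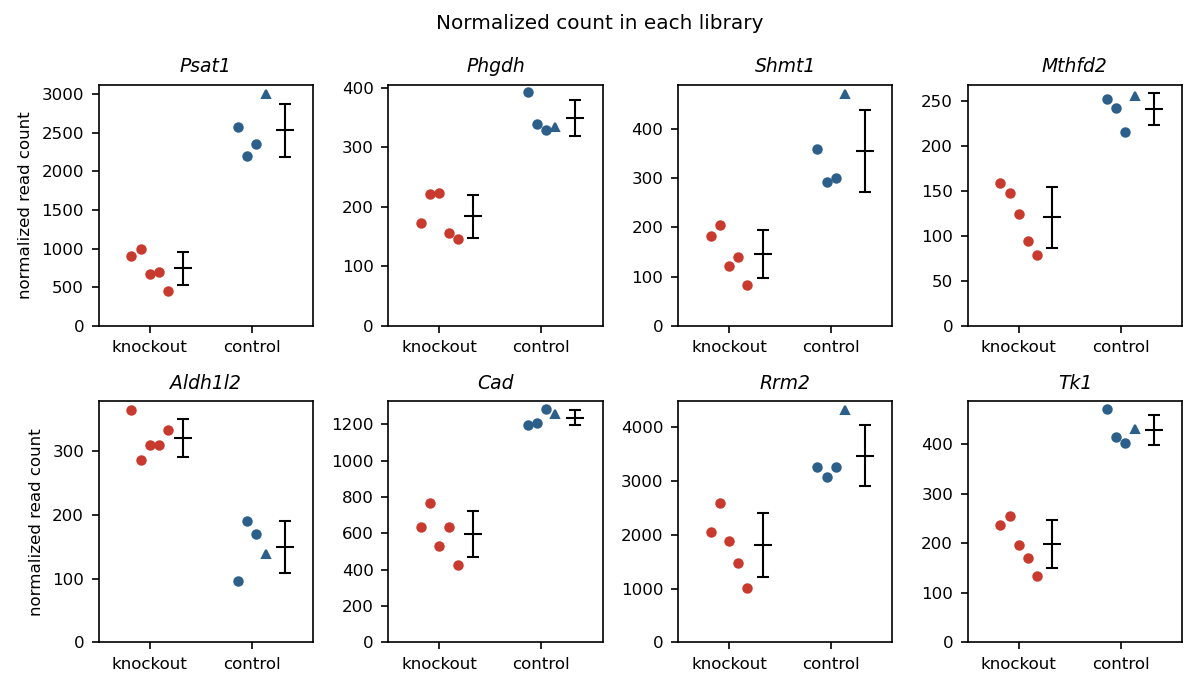
Normalized read count of 8 members in each library; points are libraries, the triangle is the heterozygous control replicate 4, and the bar beside each group is its mean with the SD. The groups do not overlap for any of the 8 genes, and Aldh1l2 is the gene that is higher in knockout.

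In the folate branch, enzymes of the cytosol and of the mitochondrion fell, and a mitochondrial enzyme that burns the folate-bound carbon rose. Shmt1 (chromosome 11, 60788104 to 60811718), the cytosolic enzyme that moves the carbon of serine to folate, had 183, 204, 122, 140 and 82.6 normalized counts in knockouts, against 359, 291, 299 and 470 in controls. It fell to 41.2% of the control mean (log2 fold change -1.31, SE 0.248, adjusted p = 0.00256), with knockout replicate 5 lowest and control replicate 4 highest. Shmt2 (chromosome 10, 127517123 to 127522444), its mitochondrial counterpart, had 358, 411, 375, 322 and 331 normalized counts in knockouts, against 693, 595, 646 and 639 in controls. The libraries of each group were close together, and it fell by 0.84 on the log2 scale (SE 0.0940, adjusted p = 5.63e-05). Per kilobase of exon, the mean level of Shmt2 was 116 normalized counts in knockouts and 207 in controls, above Shmt1 with 37.7 in knockouts and 91.4 in controls.

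The enzymes that pass the carbon between folate forms were split. Mthfd1 (-0.92, SE 0.152, adjusted p = 0.000686), the cytosolic trifunctional enzyme, fell to 53.8% of the control mean, and Mthfd1l (-1.06, SE 0.196, adjusted p = 0.00106), the mitochondrial formate-releasing enzyme, fell to 47.9%. Mthfd2 (chromosome 6, 83305691 to 83325908), the mitochondrial dehydrogenase of embryonic and dividing cells, had 158, 147, 124, 93.8 and 78.6 normalized counts in knockouts, against 252, 241, 215 and 255 in controls. All 5 knockouts were below all controls (-1.04, SE 0.182, adjusted p = 0.000875). Mthfd2l (chromosome 5, 90931117 to 91021368), a close relative known from adult tissues, had 286, 307, 308, 261 and 273 normalized counts in knockouts, against 209, 260, 255 and 275 in controls. Here the groups overlapped and the gene did not pass the test (log2 fold change 0.20, 95% interval -0.02 to 0.43, adjusted p = 0.146). The log2 ratio of Mthfd2 to Mthfd2l averaged -1.29 ± 0.36 (SD, n = 5) in knockouts and -0.05 ± 0.22 (SD, n = 4) in controls, lower in 5 of 5 knockouts than in every control (exact permutation p = 0.0159, adjusted p = 0.0476). Gldc (-0.85, SE 0.152, adjusted p = 0.00102), the glycine-cleaving decarboxylase whose loss causes glycine encephalopathy in humans, ranged from 170 to 315 normalized counts in knockouts and from 369 to 500 in controls.

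Aldh1l2 (chromosome 10, 83487450 to 83534140), a mitochondrial dehydrogenase that oxidises formyl-folate to carbon dioxide and yields NADPH, was the only member of the 34 that rose. It had 365, 287, 309, 310.0 and 333 normalized counts in knockouts, against 97.0, 191, 170 and 139 in controls. Every knockout was above every control, and the knockout mean was 215% of the control mean (log2 fold change 1.14, SE 0.163, adjusted p = 0.000265). It was lowest in control replicate 1, and without that library the log2 fold change was 0.95 with the call kept. Exons of D10Wsu102e on the opposite strand cover 14.1% of its exon bases, and that gene averaged 491 ± 25.5 normalized counts in knockouts and 490 ± 37.8 in controls (adjusted p = 0.979). Aldh1l1, the cytosolic enzyme of the same reaction and a marker of astrocytes and their precursors, had 204, 166, 265, 198 and 225 normalized counts in knockouts, against 162, 178, 155 and 80.7 in controls. It was called higher (0.60, SE 0.212, adjusted p = 0.0451), but not without control replicates 1, 3 or 4 or knockout replicates 1, 3, 4 or 5, each left out alone (adjusted p up to 0.0999). The groups overlapped for Aldh1l1, and the ratio of Aldh1l2 to Aldh1l1 did not pass (exact permutation p = 0.127, adjusted p = 0.190).

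**Figure D3:**
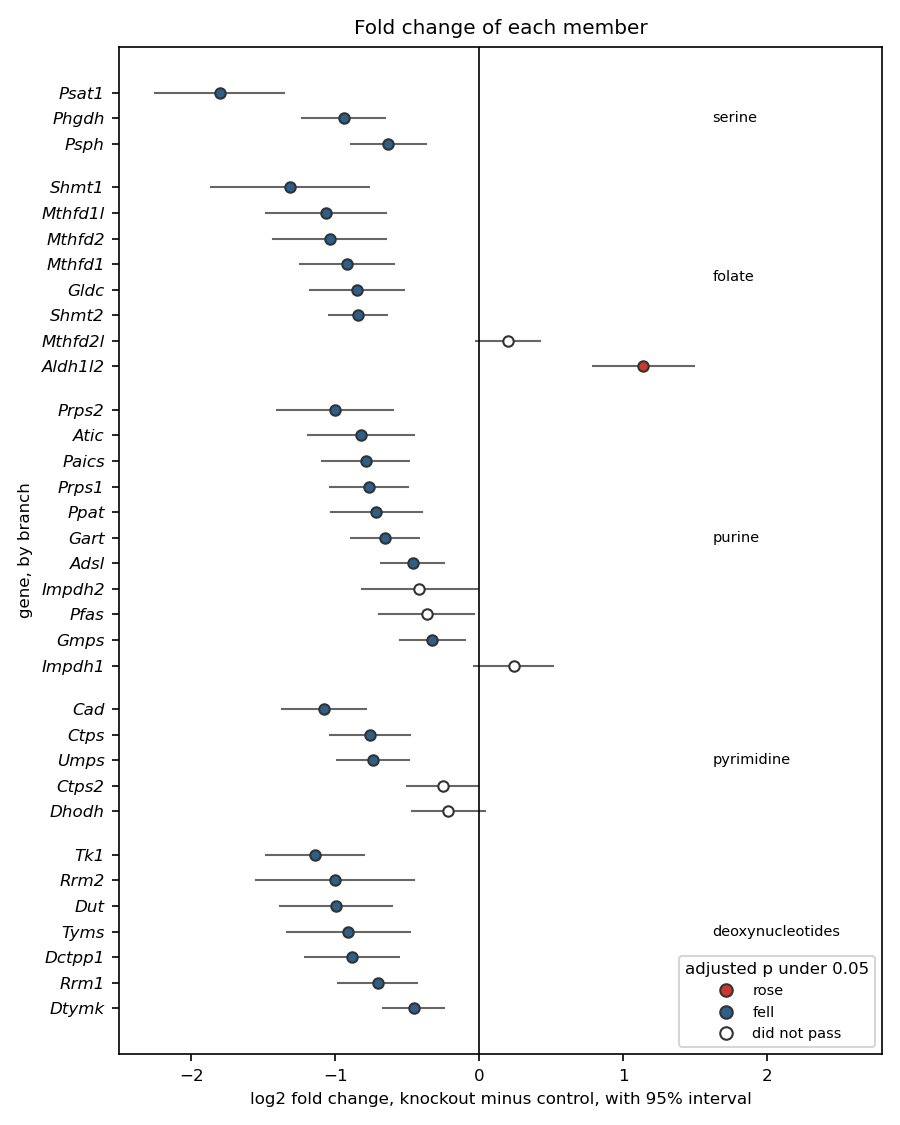
Log2 fold change of each member, knockout minus control, with its 95% interval; blue points fell, red points rose and open points did not pass at an adjusted p of 0.05. Psat1 lies farthest to the left at -1.80, and Aldh1l2 is the red point at 1.14.

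In the purine branch the enzymes that make the shared precursor were lower, and the guanine branch point was mixed. Prps1 and Prps2 make phosphoribosyl pyrophosphate, the sugar on which the ring is built. Prps1 (-0.77, SE 0.127, adjusted p = 0.000527) ranged from 202 to 289 normalized counts in knockouts and from 360 to 450 in controls. Prps2 (SE 0.188, adjusted p = 0.00141), at 51.5% of the control mean, ranged from 77.6 to 179 in knockouts and from 220 to 255 in controls. Both genes fell without overlap, and the change of their ratio did not pass (exact permutation p = 0.222, adjusted p = 0.296). Ppat (chromosome 5, 76913249 to 76951578), the amidotransferase that commits the sugar to the purine ring, had 204, 233, 181, 207 and 137 normalized counts in knockouts, against 295, 279, 289 and 392 in controls. It was lowest in knockout replicate 5 and fell by 0.71 on the log2 scale (SE 0.149, adjusted p = 0.00235). Paics (chromosome 5, 76951307 to 76967509), which carries out a later pair of ring steps, had 1722, 1835, 1424, 1335 and 1047 normalized counts in knockouts, against 2515, 2289, 2408 and 2802 in controls. It fell by 0.79 (SE 0.141, adjusted p = 0.00105), close to the change of Ppat, its neighbour.

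Ppat and Paics lie head to head on chromosome 5 with their first exons overlapping: their annotated starts are 271 bases apart, and 272 exon bases are shared between the strands. They are shown with Atic and Prps2, other purine genes that fell, because their start regions hold the letters searched for. The windows run from 250 bases before to 50 bases after the RefSeq start (GRCm38.p6) and are written in the direction of transcription. They are chr5:76951529-76951828 on the minus strand for Ppat, chr5:76951052-76951351 on the plus strand for Paics, chr1:71556906-71557205 on the plus strand for Atic and chrX:167382700-167382999 on the minus strand for Prps2. Capitals mark CACGTG, the E-box that Myc family proteins bind, or TTTCCCGC, a form of the E2F element, on either strand (in Ppat both matches are on the reverse strand).
Ppat: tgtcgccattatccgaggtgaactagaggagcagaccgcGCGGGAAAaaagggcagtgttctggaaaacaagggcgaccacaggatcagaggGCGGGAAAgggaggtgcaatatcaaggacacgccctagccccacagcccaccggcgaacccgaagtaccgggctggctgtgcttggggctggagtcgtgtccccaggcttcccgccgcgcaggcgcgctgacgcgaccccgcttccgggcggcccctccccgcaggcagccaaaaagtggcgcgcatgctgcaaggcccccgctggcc
Paics: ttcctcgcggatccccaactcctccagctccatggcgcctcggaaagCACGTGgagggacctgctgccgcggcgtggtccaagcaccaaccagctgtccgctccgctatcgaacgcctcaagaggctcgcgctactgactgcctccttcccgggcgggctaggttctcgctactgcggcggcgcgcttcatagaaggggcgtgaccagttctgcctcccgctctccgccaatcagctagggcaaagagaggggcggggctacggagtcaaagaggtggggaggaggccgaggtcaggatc
Atic: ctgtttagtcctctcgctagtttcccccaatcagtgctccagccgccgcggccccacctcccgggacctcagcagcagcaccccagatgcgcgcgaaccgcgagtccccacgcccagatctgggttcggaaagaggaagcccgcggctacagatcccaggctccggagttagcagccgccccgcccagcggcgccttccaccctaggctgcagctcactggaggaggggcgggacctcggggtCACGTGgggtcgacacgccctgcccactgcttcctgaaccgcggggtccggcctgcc
Prps2: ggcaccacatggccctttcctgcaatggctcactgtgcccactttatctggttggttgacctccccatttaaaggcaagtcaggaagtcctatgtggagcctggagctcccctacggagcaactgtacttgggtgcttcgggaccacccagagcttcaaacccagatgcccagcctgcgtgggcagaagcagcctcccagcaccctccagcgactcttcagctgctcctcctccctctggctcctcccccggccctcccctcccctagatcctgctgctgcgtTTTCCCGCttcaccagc

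Over the 31 members with such a window, CACGTG was found in 5 genes (Atic, Dtymk, Impdh2, Paics and Tyms), 16.1%, against 8.09% of 27025 genes. Of these, all but Impdh2 fell, as did 27 of all 31 members with a window, so the letters did not set apart the genes that fell. The E2F letters TTTGGCGC or TTTCCCGC, on either strand, were found in 2 members (Ppat and Prps2), 6.45%, against 1.80% of all genes and 10 of 21 DNA replication genes with a window. TGATGCAA, a form of the element that ATF4 binds with a partner, was found in 0 of 31 members and in 1.03% of all genes. These matches describe letters within the windows and no more.

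Among the other ring enzymes, Gart (-0.65), Adsl (-0.46) and Atic (-0.82) fell with no overlap between the groups. Gart, a trifunctional enzyme, ranged from 397 to 524 normalized counts in knockouts and from 657 to 820 in controls. Adsl, the lyase used both in the ring and in AMP synthesis, ranged from 250 to 295 in knockouts and from 324 to 431 in controls; against control replicates 2 and 3 alone its adjusted p was 0.0565. Atic, which closes the ring, had a lower edge of the controls, 497 in replicate 2, that was near the highest knockout, 466 in replicate 1. Pfas, which adds the ring's amidine nitrogen, averaged 430 ± 82.6 (SD, n = 5) in knockouts and 553 ± 97.4 (SD, n = 4) in controls and did not pass (-0.36, adjusted p = 0.0825). Control replicate 1 was the lowest control for Pfas, at 409, and without it the adjusted p was 0.0156; without knockout replicate 2 it was 0.0267.

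At the branch to guanine nucleotides, Impdh1 and Impdh2 encode the rate-limiting dehydrogenase and Gmps the next enzyme. Impdh1 averaged 163 ± 25.3 (SD, n = 5) in knockouts and 137 ± 9.13 (SD, n = 4) in controls, with a log2 fold change of 0.24 that did not pass (95% interval -0.03 to 0.51, adjusted p = 0.162). Impdh2, the form known from proliferating cells, averaged 59.0 ± 14.0 in knockouts and 77.6 ± 10.5 in controls (-0.41, adjusted p = 0.1000; 0.0434 without knockout replicate 2). Their groups overlapped, and the log2 ratio of Impdh2 to Impdh1 was lower in knockouts by 0.65 without passing the adjustment (exact permutation p = 0.0476, adjusted p = 0.0952). Gmps fell by 0.32 on the log2 scale (SE 0.105, adjusted p = 0.0272), with 536 to 682 normalized counts in knockouts against 721 to 954 in controls. The highest control was replicate 4, the heterozygote, and without it the log2 fold change was -0.23 (adjusted p = 0.109). The call was also lost without knockout replicate 4 (adjusted p = 0.0571) or knockout replicate 5 (adjusted p = 0.0567).

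The pyrimidine branch opened with the largest decrease of its 5 genes. Cad (chromosome 5, 31054780 to 31078479), the fused enzyme of the opening steps, had 633, 765, 531, 635 and 424 normalized counts in knockouts, against 1199, 1211, 1286 and 1256 in controls. Controls were tightly grouped, and the knockout mean was 48.3% of the control mean (log2 fold change -1.08, SE 0.135, adjusted p = 0.000122). Umps, which completes UMP, ranged from 246 to 348 in knockouts and from 448 to 571 in controls (-0.74, adjusted p = 0.000415). Dhodh, the step in the mitochondrial membrane that lies between Cad and Umps, averaged 119 ± 7.43 (SD, n = 5) in knockouts and 139 ± 16.1 (SD, n = 4) in controls and did not pass (-0.21, 95% interval -0.47 to 0.04, adjusted p = 0.175). Ctps, a CTP synthase, ranged from 342 to 544 in knockouts and from 630.0 to 840.0 in controls (-0.76, adjusted p = 0.000659). Its X-linked relative Ctps2 averaged 203 ± 21.3 in knockouts and 242 ± 28.2 in controls and did not pass (-0.25, adjusted p = 0.102). The log2 ratio of Ctps to Ctps2 was lower in knockouts by 0.50, and 4 of 5 knockouts were below every control (exact permutation p = 0.0317, adjusted p = 0.0762).

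All 7 deoxynucleotide genes fell, with no overlap between the groups. Rrm2 (chromosome 12, 24708241 to 24714146), the S-phase subunit of ribonucleotide reductase, had 2047, 2591, 1881, 1479 and 1014 normalized counts in knockouts, against 3255, 3064, 3251 and 4320 in controls. Knockout replicate 2 came nearest to the controls and replicate 5 lay farthest, and the knockout mean was 51.9% of the control mean (SE of the log2 fold change 0.245, adjusted p = 0.0117). The call was lost with no filter on low values (adjusted p = 0.0562) and against control replicates 2 and 3 alone (adjusted p = 0.122). Rrm1, the large subunit, ranged from 1488 to 2469 normalized counts in knockouts and from 3124 to 3532 in controls (-0.70, adjusted p = 0.00105). Rrm2b, the p53-induced subunit used outside S phase, averaged 71.9 ± 9.89 (SD, n = 5) in knockouts and 63.8 ± 14.3 (SD, n = 4) in controls (0.19, adjusted p = 0.432). The log2 ratio of Rrm2 to Rrm2b was lower in knockouts by 1.19, with all 5 below every control (exact permutation p = 0.0159, adjusted p = 0.0476).

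Tk1 (chromosome 11, 117815526 to 117826092), the cytosolic thymidine kinase of S phase, had 237, 255, 198, 171 and 134 normalized counts in knockouts, against 471, 414, 403 and 430 in controls. It fell to 46.3% of the control mean (-1.14, SE 0.159, adjusted p = 0.000229). Tk2, the mitochondrial kinase, had 204, 203, 218, 214 and 273 in knockouts, against 172, 169, 183 and 187 in controls. Each knockout was above each control for Tk2, and it was called higher (0.31, SE 0.110, adjusted p = 0.0392); in 7 of the 9 fits that left out 1 library, all but those without knockout replicate 1 or 2, it did not pass (adjusted p up to 0.0888). The kinases thus changed unequally, and the log2 ratio of Tk1 to Tk2 averaged -0.19 ± 0.54 (SD, n = 5) in knockouts and 1.27 ± 0.14 (SD, n = 4) in controls (exact permutation p = 0.0159, adjusted p = 0.0476).

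Tyms, thymidylate synthase, uses methylene-folate to make dTMP and so joins the folate and deoxynucleotide branches. It ranged from 189 to 404 normalized counts in knockouts and from 523 to 609 in controls (-0.91, SE 0.195, adjusted p = 0.00436; 0.0708 against control replicates 2 and 3 alone). Its window (chr5:30073576-30073875, minus strand, GRCm38.p6) is shown because the E-box letters, in capitals, begin 61 bases before the RefSeq start, against 7 in Atic and 203 in Paics.
Tyms: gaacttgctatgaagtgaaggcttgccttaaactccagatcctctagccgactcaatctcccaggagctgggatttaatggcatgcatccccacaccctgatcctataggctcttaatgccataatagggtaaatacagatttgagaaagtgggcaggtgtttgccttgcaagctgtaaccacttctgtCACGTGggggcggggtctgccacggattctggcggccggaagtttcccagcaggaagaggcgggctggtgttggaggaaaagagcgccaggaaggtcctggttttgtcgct

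The enzymes that finish or police the pool fell as well. Dut, which removes dUTP so that uracil is kept out of DNA, had 705, 809, 693, 592 and 408 normalized counts in knockouts, against 1496, 1072, 1124 and 1329 in controls (-0.99, SE 0.178, adjusted p = 0.00155). Dctpp1, which hydrolyses dCTP and modified forms of it, ranged from 255 to 355 in knockouts and from 447 to 771 in controls (-0.88, adjusted p = 0.000838). Dtymk, which phosphorylates dTMP, had the smallest change of the branch, with 436 to 586 in knockouts and 641 to 737 in controls (-0.45, adjusted p = 0.00312).

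**Figure D4:**
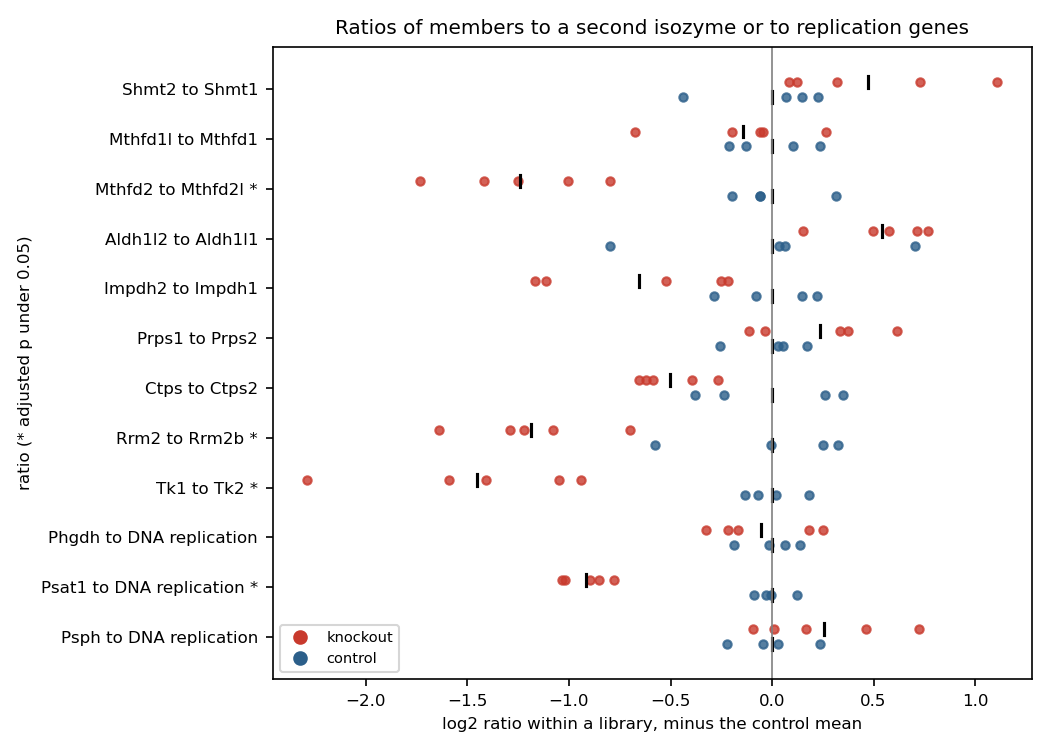
Log2 ratio within each library for 12 pairs, minus the control mean of that ratio; knockouts are plotted above controls in each row and the bar is the group mean. The 4 starred ratios have an adjusted p of 0.0476, and in each of them all 5 knockouts lie to the left of every control.

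The 12 ratios of the plot by library cover 9 isozyme pairs and the 3 serine genes, and 4 passed after adjustment. All 4 had the lowest p the exact test can give, 0.0159, and fewer than 4 at that value would not have passed. In Mthfd2 to Mthfd2l, Rrm2 to Rrm2b and Tk1 to Tk2, the ratio of the form known from dividing cells to the other form was lower in knockouts than in controls. Shmt2 to Shmt1 (difference 0.47, adjusted p = 0.190) and Mthfd1l to Mthfd1 (-0.14, adjusted p = 0.606) did not pass, so an unequal change of the mitochondrial and cytosolic forms was not detectable there. With 1 library left out, the exact test has 56 or 70 splits, and its smallest p is 0.0357 or 0.0286. That is too high for 4 ratios to pass after adjustment over 12, so these fits could not test the 4 calls. None of the 12 ratios passed (adjusted p of the 4 from 0.0686 to 0.107), while the 4 differences stayed between -0.88 and -1.58.

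Knockout libraries differed in how far the members fell. Over the 27 members that fell, knockout replicate 5 was the lowest knockout for 21 and knockout replicate 2 the highest for 21. Among controls, replicate 2 was the lowest for 20, the heterozygous replicate 4 the highest for 17 and replicate 1 the highest for 7. Control replicates 1 and 4 also had more counts in mitochondrial genes, 1.99% and 1.88%, than control replicates 2 and 3, 1.39% and 1.37%. Whether genotype plays a part in this order was not tested. The mean log2 difference of all 34 members from the control mean was -0.55, -0.41, -0.72, -0.73 and -1.01 in knockout replicates 1 to 5. The replication list gave -0.69, -0.43, -0.89, -0.98 and -1.43 in the same libraries, so the order from replicate 2 to replicate 5 was the same for both. The pan-neuronal markers gave 0.81 to 1.36, highest in replicate 5. The radial glia markers gave -0.61, -0.38, -0.52, -0.13 and -0.64 in knockout replicates 1 to 5, another order, with replicate 4 the least lowered. That list includes Pax6, which ranged from 22.7 to 493 normalized counts in knockouts, and the order without Pax6 was not computed. The part of cell makeup in the members' differences was not tested.

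**Figure D5:**
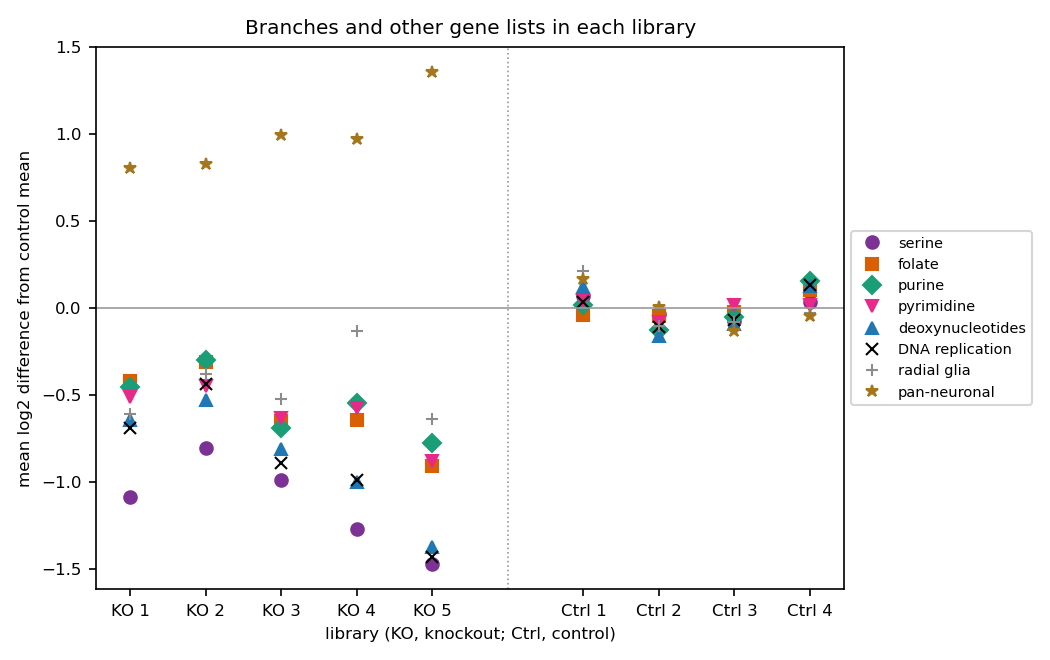
Mean log2 difference from the control mean for the 5 branches, the DNA replication list and 2 marker lists, in each knockout (KO) and control (Ctrl) library. Deoxynucleotide and replication symbols lie close together in each knockout, at -1.37 and -1.43 in replicate 5, and the serine symbol is lowest in every knockout.

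The 78 tested genes of 6 further lists include 9 transcription factors reported to act on these genes, 8 of which fell and which are described last. Of the 78, 33 fell (42.3%, against 17.3% of all genes tested) and 13 rose (16.7%, against 17.2%). Their median log2 fold change was -0.25. The share that rose was thus near that of all genes. With 1 library left out, 26 to 34 fell and 7 to 11 rose. In the list of serine and glycine supply, 7 of 17 fell (41.2%), 4 without control replicate 4, and 1 rose (5.88%). Slc1a5 (-1.28, adjusted p = 3.24e-05), a neutral amino acid carrier, Gcsh (-0.63), a subunit of the glycine cleavage system, and Ahcy (-0.76), which clears S-adenosylhomocysteine, fell. Sfxn3, a mitochondrial carrier of the sideroflexin family, rose, with a mean of 351 normalized counts in knockouts and 185 in controls (0.91, adjusted p = 0.000699). Among other folate genes 3 of 13 fell and 3 rose (23.1% each, near the shares of all genes). With 1 library left out, 1 rose without control replicates 1 or 3 or knockout replicates 3 or 5. Fpgs (-0.51, adjusted p = 0.00920), which adds the glutamate tail that keeps folate in the cell, and the methionine synthase Mtr (-0.49) were among those that fell. Mtr did not pass without control replicate 3, control replicate 4 or knockout replicate 3 (adjusted p up to 0.0826).

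Purine salvage and interconversion gave 9 genes that fell (45%) and 3 that rose (15%) of 20, with 1 that rose without control replicate 4. Of all genes tested 17.3% fell and 17.2% rose, so the share that rose was near that of all genes. Adk, adenosine kinase, fell by 1.40 on the log2 scale (adjusted p = 0.000394), and of the adenylate kinases Ak1 rose (1.41, adjusted p = 6.85e-05) and Ak4 (-1.42) fell. Ak1 is the cytosolic form known from muscle and neurons, and Ak4 is mitochondrial. In pyrimidine salvage 1 of 9 fell (11.1%) and 4 rose (44.4%). Only 2 rose without control replicates 1 or 2 or knockout replicates 1, 4 or 5, each left out alone. Uck2, the uridine kinase known from tumours, fell (-0.64, adjusted p = 0.000390), and its relatives Uck1 (0.52) and Uckl1 (0.42) rose, as did the uridine phosphorylase Upp2 (1.14). Upp2 was low, with a mean of 24.8 normalized counts in knockouts and 10.5 in controls, the latter near the minimum of 10 for testing. Uckl1 did not pass without control replicates 1, 2 or 4 or knockout replicates 1, 4 or 5, each left out alone (adjusted p up to 0.103). Of 10 other deoxynucleotide genes 5 fell (50%) and 1, Tk2, rose (10%). Dnph1 (-1.08), Dctd (-1.27), which supplies dUMP from dCMP, the dNTP hydrolase Samhd1 (-0.64) and Nudt1 (-0.70), which clears oxidised purine nucleotides, were among those that fell.

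Of 9 transcription factors reported to act on these genes, 8 fell (88.9%, against 17.3% of all genes tested) and 1 rose (11.1%, against 17.2%). Myc rose, with a mean of 74.8 normalized counts in knockouts and 25.8 in controls (1.46, adjusted p = 0.000439), whereas Mycn, the family member of neural progenitors, fell, with 392 in knockouts and 686 in controls (-0.80, adjusted p = 0.000730). The S-phase factors E2f2 (-0.95) and E2f3 (-0.72) fell. Atf4, the amino acid response factor, named here after its value was seen, had a mean of 571 in knockouts and 677 in controls (-0.25, adjusted p = 0.0416). That call was lost in 8 of the 9 fits that left out 1 library, all but the one without knockout replicate 3, with an adjusted p up to 0.101.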

How the data were processed

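RNA was sequenced from MGE in 9 libraries. The values deposited per gene are a signal, namely read counts that the authors divided by 1 size factor per library, as the values show: every value above 0 was a whole multiple of 1 step (within 0.01), which gave size factors of 0.989 to 1.05. The submitters' processing notes name mm10, DESeq2, HTSeq 0.9.1, TopHat2 2.1.1 and R 3.4.0. Annotation release and strand setting were not given in the sources used here. Of 48526 identifiers, 48058 matched a GENCODE M21 symbol. A stricter automated test for whole reads was passed by few of the columns, and count models were therefore left out.

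Genes with a mean of 10 or more (13780) were tested on log2(normalized count + 1) with limma 3.58.1 in R 4.3.3, using trend, robust and statmod 1.5.0. Tests were two-sided, p-values were adjusted after Benjamini-Hochberg, and the threshold was 0.05. Fold changes on this scale understate the change of low genes. Errors are SD between libraries or SE of the fold change. Ratios within a library were compared by exact permutation, two-sided (scipy 1.17.1), adjusted over 12 ratios. On simulated data for 13644 genes, log2 changes of -1 and 1 were recovered for 94% and 92% of 50 genes each, with 11 false calls among 201. The changed genes were drawn from those with a mean of at least 50. They were far fewer than the 34.5% of genes called here, so these rates may not hold for the real comparison. Markers and other pathway genes came from fixed lists. From each pathway list up to 4 genes past the threshold with the smallest p are named, beside all members and the partners in ratios. Of the genes whose exons overlap a member, only some are named. The members and lists were chosen with earlier results of these data known. Promoter windows are from RefSeq (GRCm38.p6), for 31 of 34 members. Pnp was not matched. Some genes that the rule takes are not reported here. Alternatives were other pseudocounts (0.5 and 8), filters, scalings, fits without trend and robust, weights for library quality, a block on replicate number, each library left out, and control replicates 2 and 3 as the only controls.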

Additional observations from a re-analysis of the deposited data

Results flagged for a closer look

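In 94 groups of libraries examined (members, Ctnnb1 and ratios, in each group), 4 values lay far from the others of their group, where chance alone flags about 1 in 20 groups. Phgdh was highest in control replicate 1, with 393 normalized counts, while replicates 2 to 4 had 330 to 339. Ppat was highest in the heterozygous control replicate 4, at 392 against 279 to 295. Gmps was highest in the same library, at 954 against 721 to 739. Rrm2 was also highest there, at 4320 against 3064 to 3251. Without control replicate 4, Gmps no longer passed the limma test (adjusted p = 0.109), and the calls of Ppat and Rrm2 were kept.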

How the results depend on the processing

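Of the 34 members, 28 kept their call and direction under all 19 alternatives; the exceptions were Pfas, Adsl, Impdh2, Gmps, Tyms and Rrm2. The number of members that fell was 26 to 29 with 1 library left out and 23 to 28 under the other alternatives, and Aldh1l2 was the 1 that rose in each. Of all genes tested, 1682 to 2416 fell with 1 library left out and 1108 to 2454 under the other alternatives. Against control replicates 2 and 3 only, 1370 genes rose and 1108 fell, and of the other pathway genes 5 rose and 19 fell. With 1 library left out, 7 to 11 other pathway genes rose and 26 to 34 fell. The replicate numbers did not pair the libraries (correlations of deviations -0.12, -0.09, 0.14 and -0.04), and with the replicate number as a block 6 other pathway genes rose (0 of the folate list, of which 1 fell), 26 members fell and Gmps had adjusted p = 0.0989. With 1 library left out no ratio passed, which the small number of splits all but fixed in advance. The differences were then -1.35 to -1.12 for Mthfd2 to Mthfd2l and -1.38 to -1.07 for Rrm2 to Rrm2b. They were -1.58 to -1.25 for Tk1 to Tk2 and -0.95 to -0.88 for Psat1 to replication genes. Phgdh to replication genes, which did not pass in any fit, ranged from -0.13 to 0.012 and turned positive without knockout replicate 1 (0.0123). A block cannot pass for a ratio, since 16 sign flips allow no p under 0.125. Depth was alike between groups, and counting error limits low genes most.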
